A study of Mus musculus with 2 samples.

Results

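Replication-dependent histone genes supply the core histones H2A, H2B, H3 and H4 and the linker histone H1 that package newly copied DNA. They were taken as the protein-coding genes of GENCODE M21 (mm10) whose names start with Hist1h, Hist2h, Hist3h or Hist4h, which gave 67 of the 21755 protein-coding genes on chromosomes 1 to 19 and X. There were 6 H1, 18 H2A, 18 H2B, 12 H3 and 13 H4 genes. Of these, 54 lie in the Hist1 groups on chromosome 13, 10 in Hist2 on chromosome 3, 2 in Hist3 on chromosome 11 and 1 (Hist4h4) on chromosome 6. DNase-seq, which finds open chromatin as peaks of DNase I cutting and protein-covered bases as short footprints, had been run on 2 libraries of one group. Both libraries came from B6CASTF1/J mice, the F1 hybrid of C57BL/6J and wild-derived CAST/EiJ mice, with the labels male, 25 days and a hippocampal layer that is not named further. They are biological replicates 1 and 2. The labels give each its own tissue sample but name the same donor entry for both, so what the spread between them covers cannot be told from the labels. With 1 group there was nothing to test, and differences are read against the spread of the 2 libraries.

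Most genes of this kind have no introns and are transcribed in S phase from clusters that share regulators. NPAT gathers at the clusters, HINFP binds H4 promoters, OCT1 (Pou2f1) binds the octamer of H2B promoters, and NF-Y binds CCAAT boxes. The messages end in a conserved stem-loop that is bound by SLBP in place of a poly(A) tail. Neurons of the hippocampus no longer divide, while granule cell precursors of the dentate gyrus go on dividing after birth. Replication-independent variants such as H3.3 (H3f3a and H3f3b) are made throughout the cell cycle. A few members of the Hist1 group serve the testis and the oocyte.

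Replicate 1 had 93545 peaks over 23.3 Mb and 223251 footprints, and replicate 2 had 79144 peaks over 18.0 Mb and 170016 footprints. Of 4 Y-linked genes, 4 had a promoter peak in replicate 1 and 0 in replicate 2, and the Xist promoter had 0 and 3 peaks. At these genes replicate 2 goes against its male label and the 2 libraries differ in a way that 1 animal would not give, although 40 peaks of replicate 1 and 39 of replicate 2 lay on the Y chromosome. A promoter peak stood in both libraries at 6 of 6 neuron markers, from Syt1 (2.49 and 1.80) down to Slc17a7 (1.05 and 1.01), at Prox1 of granule cells (1.51 and 1.06) and at 4 of 4 cycling cell markers. It did so at 2 of 3 astrocyte markers, Gfap (1.5 and 1.9) and Slc1a3 (1.28 and 0.664). Of 3 microglia markers it did so at 1, C1qc (1.37 and 0.993). Aqp4, Cx3cr1 and Trem2 had no promoter peak in either library. Over all protein-coding genes the share with one in both was 63.2%, and these lists are too short to be set against it. In bulk tissue fewer open cells and less opening per cell cannot be told apart.

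All 13 H4 promoters carried GTCCG, the core of the HINFP site, which 26.6% of all promoters held (250 bases before to 50 bases after the TSS, both strands). The core nearest to the start codon lay 52 to 114 bases before it, and Hist1h4k and Hist1h4h each had another core further up. The H4 stretches below run from 20 bases before the core to 24 bases after it, read 5′ to 3′ on the gene's strand in GRCm38.p6, the build of mm10. They show the C57BL/6J reference and not the CAST allele. Capitals mark the core. They are shown because footprints crowd around this core, as described further on, and Hist1h4m and Hist1h4n because they are copies.

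Hist1h4i, chr13:22041379-22041427, minus strand: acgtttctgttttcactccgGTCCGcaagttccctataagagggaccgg
Hist1h4c, chr13:23698475-23698523, minus strand: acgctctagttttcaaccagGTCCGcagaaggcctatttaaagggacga
Hist4h4, chr6:136804434-136804482, minus strand: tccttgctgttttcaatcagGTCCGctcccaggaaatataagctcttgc
Hist1h4d, chr13:23581502-23581550, plus strand: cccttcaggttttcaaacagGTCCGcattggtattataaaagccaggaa
Hist2h4, chr3:96263350-96263398, minus strand: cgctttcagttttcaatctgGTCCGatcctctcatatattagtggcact
Hist1h4a, chr13:23761245-23761293, minus strand: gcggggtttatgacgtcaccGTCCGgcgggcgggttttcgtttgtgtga
Hist1h4m, chr13:21811680-21811728, plus strand: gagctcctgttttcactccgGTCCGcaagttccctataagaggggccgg
Hist1h4n, chr13:21832214-21832262, minus strand: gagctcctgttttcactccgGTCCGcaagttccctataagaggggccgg

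The lines for Hist1h4m and Hist1h4n are the same letters, and the stretches of the 13 genes held 12 different sequences. A motif match is a description of the letters and neither a site in use nor a cause.

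H2A and H2B genes stood head to head in 12 pairs, with 278 to 334 bases between the 2 start codons (median 299). The bases between the TSSs of Hist1h2bf and Hist1h2ad are printed as the example with the highest value on chromosome 13, with CCAAT and its reverse complement in capitals. All 12 pairs held a CCAAT box. Every H2A and every H2B promoter did so (18 of 18 each), against 38.9% of all promoters.

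Hist1h2bf and Hist1h2ad, chr13:23574197-23574380, plus strand: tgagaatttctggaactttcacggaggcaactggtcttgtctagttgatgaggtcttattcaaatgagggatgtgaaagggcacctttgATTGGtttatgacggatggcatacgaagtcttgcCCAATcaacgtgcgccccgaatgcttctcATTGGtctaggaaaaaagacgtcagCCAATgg

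The octamer ATTTGCAT stood in 8 of 18 H2B promoters (44.4%) and in 7 of 18 H2A promoters (38.9%), against 1.59% of all promoters. Some of these sites were counted for both genes of a head-to-head pair. The lines give the octamer of H2B genes in capitals with 20 bases on each side. Hist1h2ba, the testis H2B gene, is shown beside 4 other H2B genes.

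Hist2h2be, chr3:96221053-96221100, plus strand: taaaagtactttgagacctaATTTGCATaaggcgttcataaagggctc
Hist2h2bb, chr3:96269632-96269679, plus strand: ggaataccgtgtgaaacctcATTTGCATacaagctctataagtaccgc
Hist1h2bk, chr13:22035771-22035818, plus strand: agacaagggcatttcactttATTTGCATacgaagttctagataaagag
Hist1h2bg, chr13:23571321-23571368, plus strand: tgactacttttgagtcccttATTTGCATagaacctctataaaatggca
Hist1h2ba, chr13:23934293-23934340, minus strand: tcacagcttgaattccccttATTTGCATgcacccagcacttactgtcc

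H1 promoters held the H1 box AAACACA in 4 of 6 genes, against 6.44% of all promoters, with its middle 110 to 114 bases before the TSS. Hist1h1c and Hist1h1t, the testis linker histone, are given with the box in capitals.

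Hist1h1c, chr13:23738675-23738721, plus strand: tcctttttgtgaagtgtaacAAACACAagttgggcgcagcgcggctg
Hist1h1t, chr13:23695677-23695723, plus strand: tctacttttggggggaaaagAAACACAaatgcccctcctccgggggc

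A promoter peak, meaning a peak that overlapped 1 kb on either side of an annotated TSS, was present in both libraries at 56 of the 67 histone genes. That is 83.6%, against 63.2% of all protein-coding genes. In replicate 1 the share was 58 of 67 genes against 65.7% of all genes, and in replicate 2 it was 56 of 67 against 64.5%. In the authors' stricter peak list it was 49 of 67 genes in both libraries, against 57.7% of all genes. The histone genes are short, and short genes were rarely open. Of 849 other genes of at most 1193 bp, 13.1% had a promoter peak in both libraries, and of 1175 other genes with 1 exon and 1 transcript 27.5%.

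The histone promoters were often open, with values near or below those of other open promoters. Their highest promoter peak had a median value of 2.00 in replicate 1 and 1.57 in replicate 2, against 2.17 and 2.08 over all genes that had one. The value is the authors' signal, whose scale is not stated, so it serves to rank peaks. The mean of the 2 medians was 1.79 ± 0.30 for the histone genes and 2.12 ± 0.066 for all genes (SD, n = 2 libraries each). Of the 56 genes with a peak in both libraries, 45 were higher in replicate 1 than in replicate 2 (80.4%), against 65.7% of all genes with a peak in both. Many windows overlap, since 26 of the 67 genes had the TSS of another coding gene within 500 bp, and 45 different peaks in replicate 1 and 44 in replicate 2 stood behind the values.

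**Figure D1:**
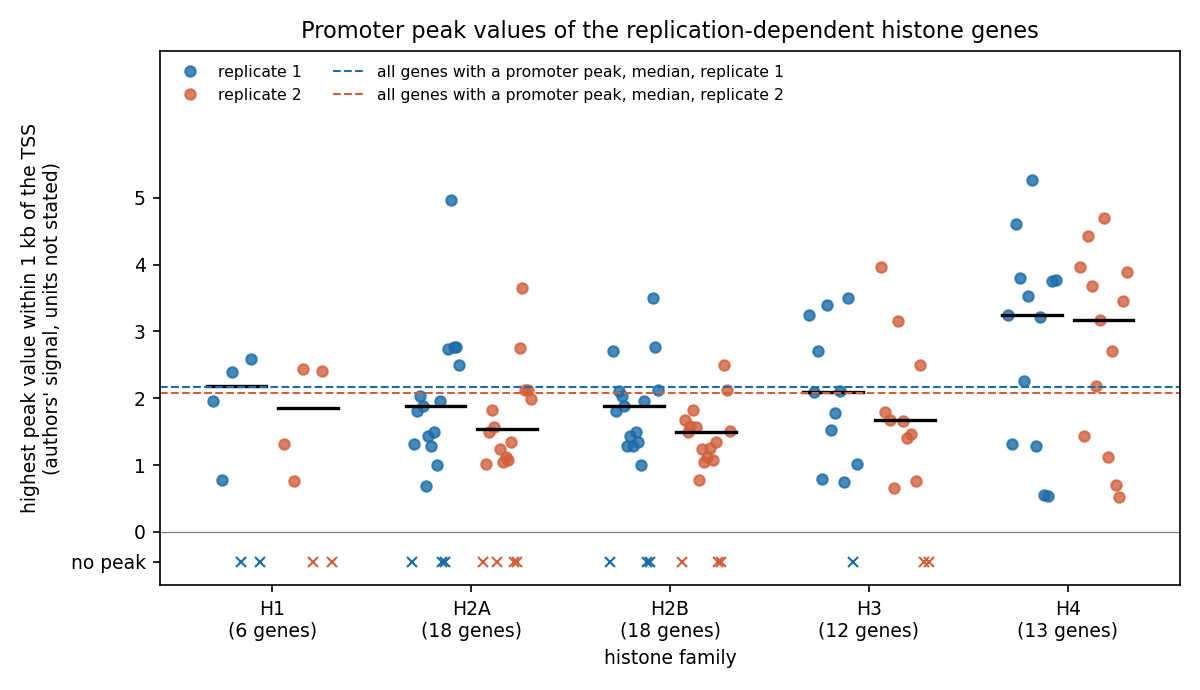
Highest peak value within 1 kb of the TSS (authors' signal, vertical axis) of each histone gene by family (horizontal axis), replicate 1 in blue and replicate 2 in orange; black bars are family medians, crosses are genes without a peak and dashed lines the medians of all genes with a promoter peak. The H4 medians of 3.24 and 3.17 lie above both dashed lines, and the H2A and H2B medians lie below them.

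The H4 family stood apart from the other 4 by more than the spread of the libraries. H4 genes, which make the core histone that pairs with H3, were open in both libraries at 13 of 13 promoters, with a median value of 3.24 in replicate 1 and 3.17 in replicate 2. H3 genes were open at 10 of 12, with medians of 2.09 and 1.67. H1 genes were open at 4 of 6, with 2.18 and 1.86. Over all genes 63.2% were open in both libraries, and the 66.7% of H1 was near that.

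H2A genes were open at 14 of 18, with medians of 1.89 and 1.53. H2B genes were open at 15 of 18, with 1.89 and 1.5. Of the 5 families, H4 was the one whose median passed that of all genes in both libraries. The mean of the 2 library medians was 3.21 ± 0.051 for H4, 2.02 ± 0.22 for H1, 1.88 ± 0.30 for H3, 1.71 ± 0.25 for H2A and 1.69 ± 0.27 for H2B (SD, n = 2 libraries), so the order among the other 4 lies within their spread. Among all genes with a promoter peak, the median H4 gene stood at the 81.3rd percentile in replicate 1 and the 82.9th in replicate 2. The median over all histone genes stood at the 44.3rd and 34.7th.

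The 10 highest promoters held 7 H4 genes. Hist1h4i led with 5.27 in replicate 1 and 4.70 in replicate 2, at the 98.7th and 98.2nd percentile. Hist1h4c followed with 4.61 and 4.43. Both H4 genes stood near the top in both libraries.

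Hist2h2aa2, an H2A gene of the chromosome 3 group, had 4.97 and 3.65, with 59.4% of its 32-base words found again elsewhere in the genome, so that reads of its copies could be split. Hist4h4 had 3.77 and 3.89, Hist1h4d 3.80 and 3.68, and Hist2h4 3.75 and 3.45. Hist1h4a and its neighbour Hist1h3a shared a peak of 3.24 and 3.96. This peak was centred 21 and 121 bases before the TSS of Hist1h4a but 1135 and 1035 bases after that of Hist1h3a. Peaks over the body of Hist1h3a reached only 1.10 and 0.844, so its place among the 10 comes from the peak of its neighbour. The order of these 6 genes changed between the libraries. Hist1h4h had 3.53 and 3.17 and the H3 gene Hist1h3e 3.39 and 3.16, both below Hist1h4i and Hist1h4c in each library.

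H4 also held some of the lowest values. Hist1h4b had 1.31 and 1.43, and Hist1h4j 1.29 and 1.12. Hist1h4m had 0.551 and 0.696, and Hist1h4n 0.544 and 0.522. The protein is the same in all 13 genes (103 residues, computed from the genome), and the genes that encode it held both the highest and the lowest promoter value of the histone genes in each library. The coding sequences of the 13 genes, 12 of them different, were 85.4% to 100% identical in pairs.

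Hist1h4m and Hist1h4n lie beside the copied pairs described further on, and 95.8% and 95.7% of the 32-base words of their promoter windows occur again in the genome. Hist1h4i, whose printed stretch resembles theirs, had 13.1% such words. The part of repeated sequence in the low values was not tested.

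**Figure D2:**
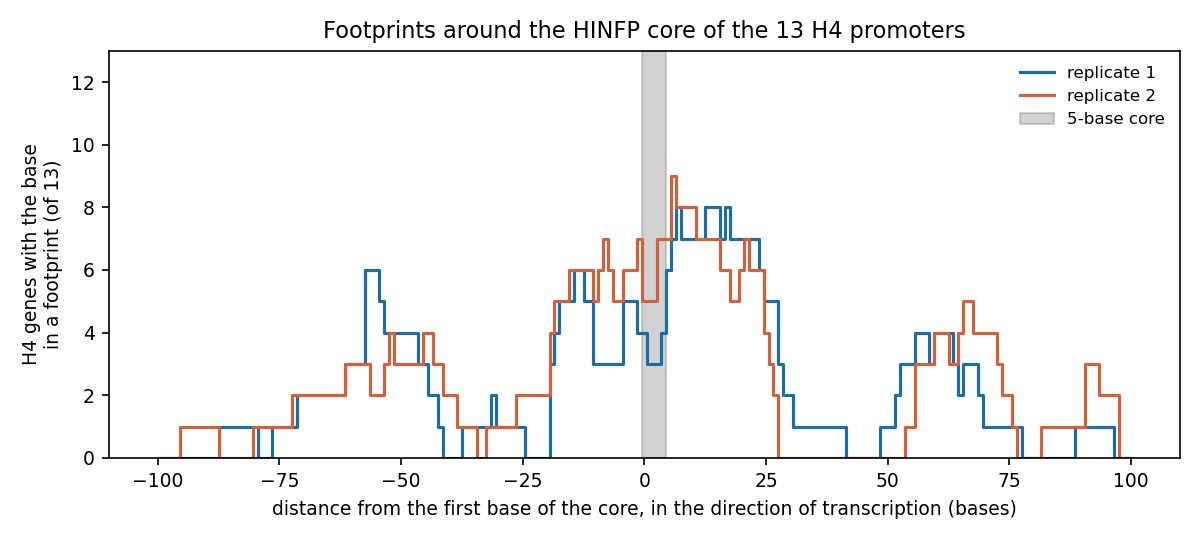
Number of the 13 H4 genes (vertical axis) that have a base in a footprint at each distance in bases from the first base of the HINFP core (horizontal axis), replicate 1 in blue and replicate 2 in orange; the grey band is the core. Counts reach their highest, 8 genes in replicate 1 and 9 in replicate 2, within 24 bases after the core, and smaller groups of footprints stand more than 40 bases away on either side.

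Footprints crowded around the H4 core. A footprint touched the printed type of stretch at 12 of 13 H4 genes in replicate 1 and at 13 of 13 in replicate 2, and the gene without one in replicate 1 was Hist1h4n. Hist1h4i, the highest promoter, had 31 and 42 of its 49 bases in footprints, Hist1h4c 41 and 45, and Hist4h4 41 and 30. In replicate 1 the Hist1h4i stretch lay outside the peak itself. Footprints covered 41.9% and 46.0% of the bases of these stretches. Around octamers, footprints covered 8.85% and 1.56% of bases, and around H1 boxes 2.13% and 9.57%. Fewer of those stretches were in peaks. Of the 13 H4 stretches, 11 and 13 had bases in a peak, of the 8 octamer stretches 5 and 5, and of the 4 H1 box stretches 1 and 2. The shares therefore do not compare the motifs at equal openness. These stretches were chosen after their values were seen.

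The same 49 bases were read at every core in all promoters whose middle base lay in a peak. Of such H4 cores, 10 of 10 in replicate 1 and 12 of 12 in replicate 2 had a footprint in the stretch, against 63.2% of 4442 and 63.0% of 4349 over all genes. At H4 genes footprints covered 45.9% and 48.7% of bases, against 16.7% and 17.1% over all genes. The H4 side took the core nearest to the start codon of each gene, and its stretch was cut to 30 bases at the TSS of Hist1h4h. Over all genes every core on either strand was taken. The place and direction of the cores were therefore not matched. At H4 genes the footprints lay more beside the core than on it in replicate 1, and about equally in replicate 2. They covered 26.2% and 44.6% of the bases of the core, 31.2% and 42.3% of the 20 bases before it, and 51.6% and 46.5% of the 24 bases after it. The bases after the core held the TATA box TATAAA at Hist1h4d, Hist1h4j and Hist1h4k. Which of these letters the footprints belong to was not tested. The middle of the core itself lay in a footprint of both libraries at Hist4h4, Hist1h4c and Hist1h4a.

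In the 250 bases before the start codon, footprints covered 15.4% of the bases of H4 genes in each library, against 8.97% and 9.14% for all histone genes. This window contains the H4 stretches described above, so it is not a second, separate measure of them.

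No octamer of an H2B promoter had its middle base in a footprint of either library. The 8 sites lay in a peak at 3 in replicate 1 and 5 in replicate 2. Over all promoters, 94 octamers lay in a peak in replicate 1 and 105 in replicate 2, with 2 and 5 in a footprint. That these letters were in no footprint says nothing of whether OCT1 was bound.

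CCAAT boxes lay in footprints about as often as elsewhere. Of the CCAAT boxes of histone promoters that lay in peaks, 7 of 42 in replicate 1 (16.7%) and 6 of 56 in replicate 2 (10.7%) had the middle base in a footprint. Over all promoters the shares were 14.5% and 12.6%. The TATA box TATAAA stood in 37 of 67 histone promoters (55.2%), against 12.7% of all promoters. Of its histone sites in peaks, 4 of 20 in replicate 1 (20%) and 7 of 17 in replicate 2 (41.2%) had the middle base in a footprint. Over all promoters the shares were 18.4% and 21.7%. At H4 genes it was 3 of 4 sites in each library. The E2F site TTTNGCGC stood in 7 H2A and 7 H2B promoters, against 1.68% of all promoters. Of its 8 distinct histone sites, 5 lay in a peak in replicate 1 and 2 in replicate 2, and 0 of these had the middle base in a footprint, against 25.6% and 25.9% of the sites in peaks over all promoters. The site between Hist1h2ah and Hist1h2bk was in a footprint of replicate 2, outside the peaks of that library.

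Footprints were present in the promoter window of 54 of 67 histone genes in both libraries (80.6%), against 61.6% of all genes. The most were counted in the chromosome 3 group. Hist2h2ab had 14 in replicate 1 and 19 in replicate 2, and Hist2h2ac 14 and 16. A TSS of Bola1, which is not a histone gene, lies 156 bp from that of Hist2h2ab, so the window of Hist2h2ab takes in 2 promoters. The H4 gene Hist1h4h had 13 and 12. Hist1h4a and Hist2h2be had 11 and 11 each, and the H3 gene Hist1h3f, with 13 and 9, tied with them. Histone genes had medians of 6 and 4, against 5 and 4 over all genes.

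Hist2h2be and Hist2h2ac, the H2B and H2A pair of the Hist2 group, had a peak of 2.22 and 2.13 between their start codons. Of the 12 pairs, 8 had a peak between the start codons in both libraries, with medians of 1.65 and 1.37. The pair of Hist1h2bf and Hist1h2ad had 2.04 and 1.83, Hist1h2ae and Hist1h2bg 1.89 and 1.57, and Hist1h2ac and Hist1h2bc 1.81 and 1.5. All these pairs were above Hist1h2ak and Hist1h2bn, with 0.996 and 1.07, and Hist1h2ah and Hist1h2bk, with 1.29 and 1.04, the lowest of replicate 1 and of replicate 2.

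Between Hist1h2an and Hist1h2bp a peak of 1.35 was present in replicate 2 and none in replicate 1, although FDR runs covered all of the 296 bases in both. The 3 remaining pairs had no peak, no footprint and no base with an FDR under 0.05 in either library. They were the testis pair of Hist1h2ba and Hist1h2aa and the pairs of Hist1h2bq with Hist1h2ao and of Hist1h2ap with Hist1h2br.

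**Figure D3:**
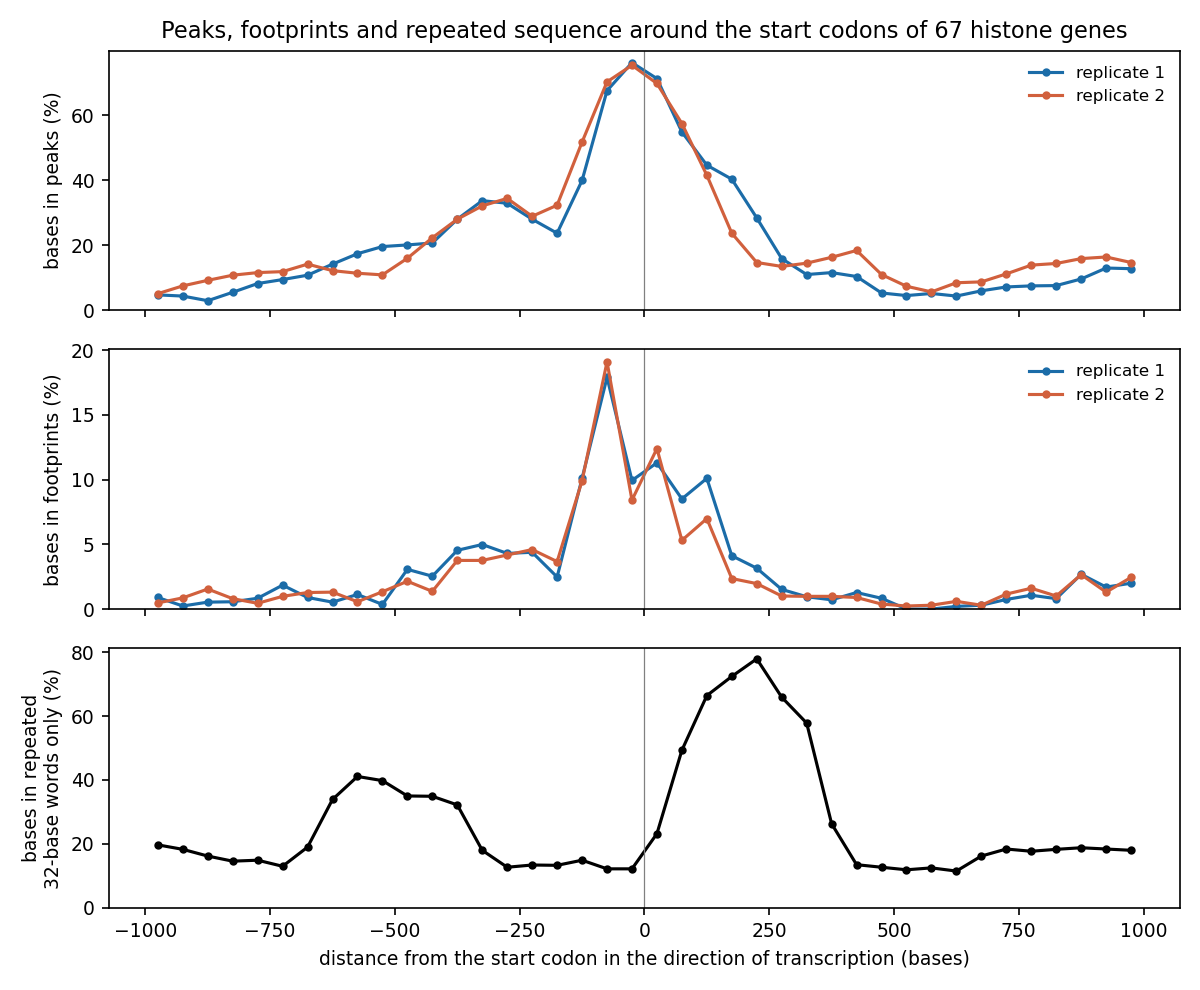
Share of the 67 genes' bases in peaks (top), in footprints (middle) and covered only by 32-base words that occur again in the genome (bottom), in 50-base steps of distance from the start codon; replicate 1 is blue and replicate 2 orange. Peaks are highest at 76.1% and 75.3% just before the start codon, footprints at 17.9% and 19.1% in the 50 bases before that, and repeated bases at 77.9% inside the coding sequence.

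The strongest promoter peak was centred within 200 bases of the start codon at 39 of 58 genes in replicate 1 and 38 of 56 in replicate 2, and elsewhere in the window at the others. Peaks were densest just before the coding sequence. They covered 76.1% of bases in replicate 1 and 75.3% in replicate 2 in the 50 bases before the start codon. Footprints were densest 51 to 100 bases before the start codon, at 17.9% and 19.1%. Further into the genes, where coding sequences are alike, 77.9% of the bases from 200 to 249 lay only in repeated words, and peaks covered 28.4% and 14.7% there.

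A peak overlapped the gene body in both libraries at 53 of 67 histone genes (79.1%), against 66.9% of all genes. A footprint did so at 42 of 67 (62.7%), against 63.2% of all genes. Of 849 other genes of at most 1193 bp, 11.1% had a body peak in both libraries, and of 1175 other genes with 1 exon and 1 transcript 25.7%. Peaks covered a median of 21.0% of the body in replicate 1 and 20.8% in replicate 2, against 1.01% and 0.774% over all genes. A single peak fills a larger share of a short body, and these covered shares were not matched for gene length.

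No promoter peak was present in either library at 9 histone genes, and none of them had a base with an FDR under 0.05 or a footprint there. The first set is the germ-line genes. Hist1h1t, the linker histone of spermatocytes, and Hist1h2ba and Hist1h2aa, the H2B and H2A of the testis, had no peak in the window or the gene body. Of the words in their windows, 0%, 10.7% and 10.7% occur again in the genome. Across 8 germ-line histone genes, with the oocyte H1 gene H1foo and the spermatid genes H1fnt and Hils1 among them, 0 had a promoter peak in either library. Of all genes 63.2% had one in both.

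The second set consists of copies. Hist1h2bq (H2B) and Hist1h2ao (H2A) form a pair that is repeated as Hist1h2br and Hist1h2ap, with 23.6 kb between the H2B copies and 23.0 kb between the H2A copies. The 2001 bases centred on the start codon of Hist1h2bq and of Hist1h2br were identical, and so were those of Hist1h2ao and Hist1h2ap. All 32-base and all 75-base words of the 4 windows occur again in the genome. A read that maps to several places is often dropped, and how such reads were treated is not stated. Whether these promoters were open cannot be read from these files.

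Hist2h3c1 and Hist2h3c2, which make the same H3 protein, are 99.8% identical over the 601 bases around their start codons, and 80.6% and 79.6% of their words occur again. Hist2h3c1 had no peak in either library, and Hist2h3c2 had 1.02 in replicate 1 and none in replicate 2. Their neighbours Hist2h2aa1 and Hist2h2aa2 are another copied pair, 99.7% identical over the same span, and yet had 2.73 and 2.75 for the first and 4.97 and 3.65 for the second. Their strongest peaks were centred 430 and 350 bases before the start codon of Hist2h2aa1 and 71 bases before that of Hist2h2aa2 in both libraries.

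The remaining gene without a promoter peak is Hist1h1d, an H1 gene of dividing cells, whose annotated TSS lies 1828 bases from its start codon. No peak was called at its annotated promoter, while peaks of 1.29 and 1.35 stood within 1 kb of the start codon. Hist1h2be, an H2B gene whose outer TSS lies 35168 bases from its start codon, inside Hist1h1e, had promoter values of 2.11 and 1.58. Around its start codon the values were 1.29 and 1.17. The neighbouring H1 gene Hist1h1e had 2.59 and 2.41. Hist1h2af, an H2A gene, had a promoter peak of 0.692 in replicate 1 and none in replicate 2, with 17.3% repeated words.

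**Figure D4:**
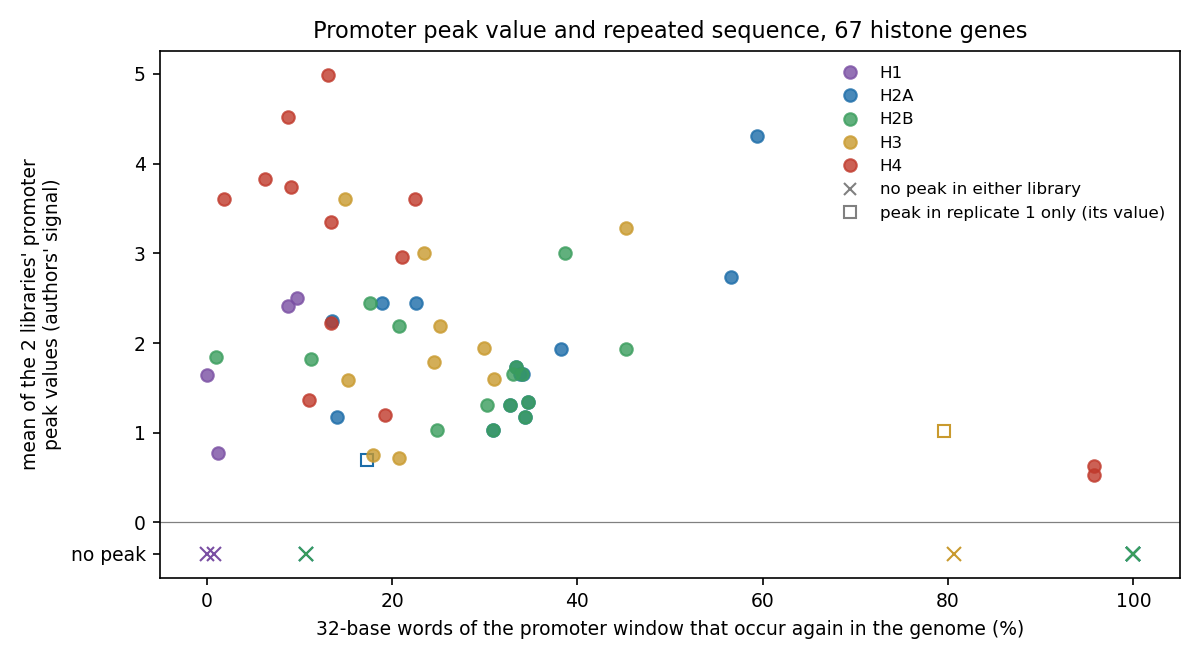
Mean promoter peak value of the 2 libraries (authors' signal, vertical axis) against the share of 32-base words of the promoter window that occur again in the genome (horizontal axis) for the 67 histone genes by family; crosses had no peak and open squares a peak in replicate 1 only. Genes with 95.7% or more repeated words had low values or none, and the highest values belong to genes below 60%.

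Repeated sequence went with missing peaks at its extreme. Of the 6 genes with 90% or more repeated words, 2 had a promoter peak in both libraries, and of 6 genes between 40% and 90%, 4 did. Of 28 genes between 20% and 40%, 28 were open, and of 16 between 10% and 20%, 13. Below 10% it was 9 of 11, and these 11 genes had medians of 2.59 and 2.43. Within the joined promoter windows, peaks covered 22.3% and 25.5% of bases that lie in at least 1 word found once, and 16.1% and 12.1% of bases found only in repeated words.

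**Figure D5:**
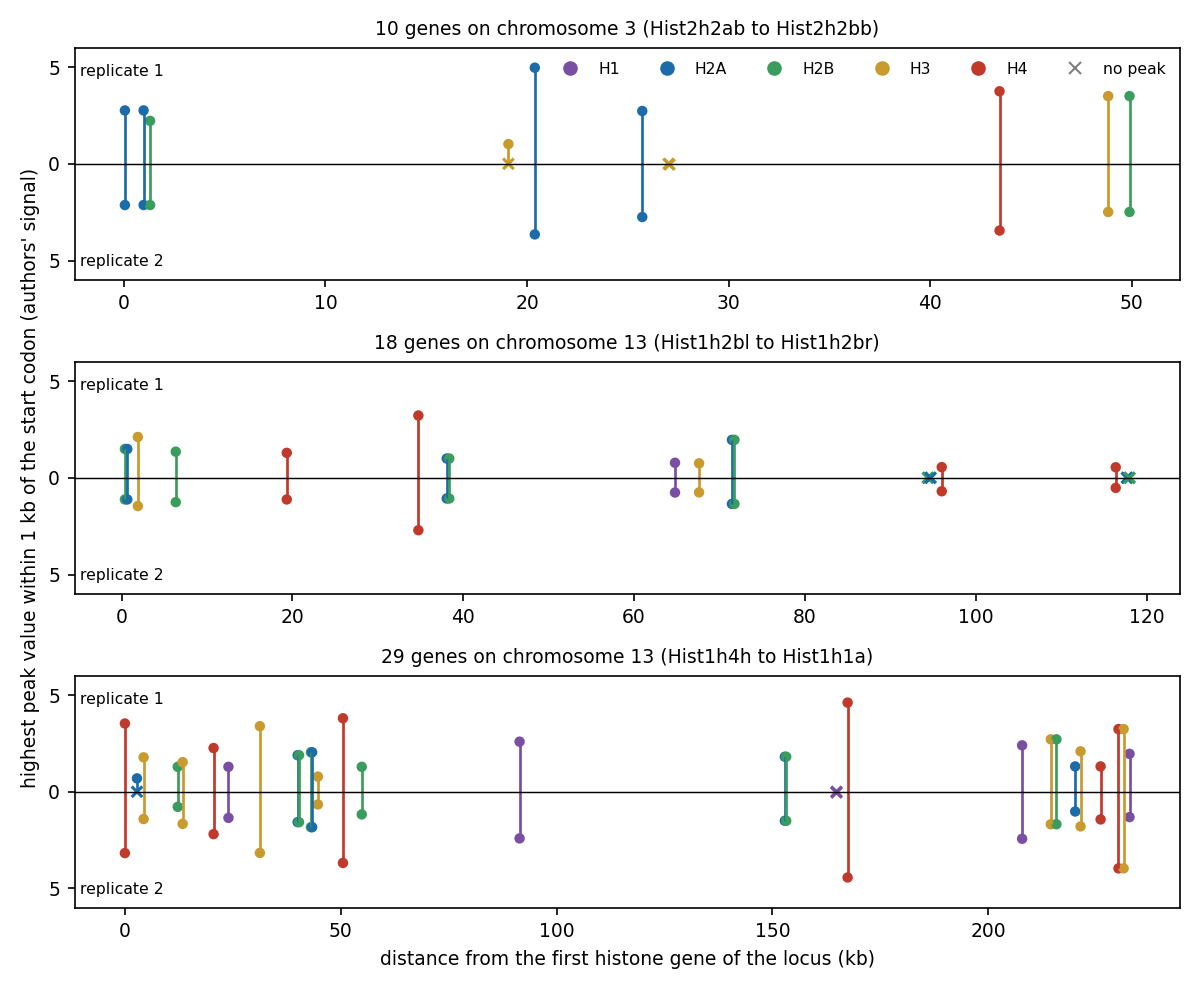
Highest peak value within 1 kb of the start codon (authors' signal, replicate 1 upward and replicate 2 downward) of the genes of the 3 largest groups, by distance in kb from the first histone gene of the group; colours are families and crosses genes without a peak. H4 genes reach 4.61 and 4.43 in the largest group, and the copied pairs without peaks stand near the end of the group of 18.

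On chromosome 13 the genes formed 4 groups. The group of 18 from Hist1h2bl to Hist1h2br (21715763 to 21837530, 122 kb) had 14 open promoters, and the group of 5 from Hist1h2ah to Hist1h2bj had 5. The largest, of 29 genes from Hist1h4h to Hist1h1a (23531050 to 23764406, 233 kb), had 26. The testis pair Hist1h2ba and Hist1h2aa stood alone with 0. Of all genes 63.2% were open in both libraries. The 1.49 Mb between the second and the largest group held 40 coding genes, 36 of them vomeronasal receptor genes (Vmn1r), and no histone gene.

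On chromosome 3, 8 of 10 genes were open. Hist2h2bb, an H2B gene, and Hist2h3b, an H3 gene, shared a peak of 3.50 in replicate 1 and 2.49 in replicate 2. It was centred 1117 and 1087 bases after the TSS of Hist2h3b, whose body peaks reached 2.09 and 1.77. Hist2h2ab, Hist2h2ac and Hist2h2be had the same values of 2.76 and 2.13, since their windows overlap. The window of Hist2h2ab also holds a TSS of Bola1, which is not a histone gene. On chromosome 11, Hist3h2a had 2.50 and 1.99 and Hist3h2ba 2.13 and 1.51. A TSS of Trim17, also not a histone gene, is annotated at the same base as that of Hist3h2a. Which gene the peaks and footprints there belong to cannot be told. The histone genes outside chromosome 13 were open at 11 of 13 promoters, against 63.2% of all genes.

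The peaks at histone genes recurred between the libraries. Of 88 peaks at these genes in replicate 1, 79 (89.8%) overlapped a peak of replicate 2, against 59.8% of all peaks. Of 91 in replicate 2, 79 (86.8%) overlapped one of replicate 1, against 71.7%. The histone peaks were stronger than most, with median values of 1.33 and 1.17, against 0.657 and 0.651 for all peaks. The set of all peaks includes those away from genes, so these comparisons do not set histone genes apart from other genes. Of 58 histone genes with a promoter peak in replicate 1, 56 also had one in replicate 2. Of all protein-coding genes it was 13742 of 14288. Median promoter values were 2.00 and 1.57 for histone genes, below the 2.17 and 2.08 of all genes with a promoter peak.

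CpG dinucleotides, which are frequent at many promoters, were dense at histone genes. The ratio of observed to expected CpG in 1000 bases around the TSS had a median of 0.878, against 0.558 over all genes and 0.716 over all genes open in both. Hist1h1d at 0.115 and Hist1h1t at 0.440 stood at the low end and had no promoter peak, while the next lowest, Hist1h3f at 0.523, had one in both libraries. As a set, the 11 histone genes without a promoter peak in both libraries had a median of 0.885. The 56 with one had 0.875. The 11 include the 4 copies with all words repeated (0.916 to 0.943), whose openness cannot be read, and the copies Hist2h3c1 (0.902) and Hist2h3c2 (0.885). Of the others, the testis genes Hist1h2aa and Hist1h2ba had 0.648 and 0.683, and Hist1h2af had 0.862. The 2 medians therefore cannot tell whether the ratio separates open from closed histone promoters.

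At the other end of the genes, the stem-loop was found within 200 bases after the stop codon in 61 of 67 genes. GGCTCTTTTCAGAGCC was its sequence in 41 of them, and it began a median of 31 bases after the stop codon.

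Replication-independent histone genes had a promoter peak in both libraries at 11 of 11, against 63.2% of all genes, with medians of 3 and 2.97, against 2.17 and 2.08 over all genes that had one. H2afv, an H2A.Z gene, had 3.94 and 3.53, the linker gene H1f0 3.31 and 3.96, and Cenpa, the H3 of centromeres, 1.14 and 1.33. These medians were above 2.00 and 1.57, those of the 67 clustered genes.

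The 16 regulators of histone transcription and 3′ processing were open at 16 of 16, also above the 63.2% of all genes, with medians of 3.19 and 3.09, against 2.17 and 2.08. Lsm11, part of the U7 snRNP that cuts histone messages, had 4.13 and 5.47. Nfya, a subunit of NF-Y, had 4.34 and 4.51, and Sympk, a scaffold of the cleavage complex, 2.04 and 2.22. Npat had 3.51 and 3.72, Hinfp 2.61 and 2.66, Slbp 4.96 and 3.73 and Pou2f1 3.17 and 2.71.

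The 18 S-phase genes were open at 18 of 18, against 63.2% of all genes, with medians of 2.50 and 2.44, nearer to the 2.17 and 2.08 of all genes. Mcm5, of the replicative helicase, had 3.50 and 3.93, Ccne1 (cyclin E1) 3.20 and 4.18, and Tyms, which makes thymidylate, 0.897 and 0.902. DNase-seq measures access to DNA, not transcription or division.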

How the data were processed

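DNase-seq was read from 2 libraries, biological replicates 1 and 2 of 1 group per the labels. Per the labels and the file list deposited with each library, the assembly is mm10 and each file derives from that library's own alignments. For aligner, callers and reads that map to several places, the methods were not given in the sources used here. Peak signal is the authors' value per peak, with unstated scaling, so the number of cuts is unknown. The p-value column is an FDR per run of bases, deposited for runs under 0.05. Footprints were used as deposited intervals, and their constant column of 0.01 was not used.

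Promoter windows were 1 kb on each side of any annotated TSS (GENCODE M21, chromosomes 1 to 19 and X), and overlap meant at least 1 bp. The highest peak value of a window was taken. Words of 32 and 75 bases of each window were counted in GRCm38.p6 on both strands with numba 0.67.0, and copies were sought with blastn 2.17.0 (at least 90% identity over 80% of the length). Intervals were handled in Python 3.11.15 with numpy 2.4.6, pandas 2.3.3 and pysam 0.24.0, figures in matplotlib 3.10.9, and interval and word counts were tested on simulated data. Of each library, the longer peak list was the main one. Members and gene lists were chosen with earlier results of these data known. Genes described in full were the 10 highest promoters, genes without a peak in both libraries or with one in a single library, the 5 with the most footprints, genes outside chromosome 13, germ-line genes and, of each list, the 2 highest and the lowest. Alternatives were other windows, anchors, overlaps and peak lists, and each library left out. The result of 1 cell type marker list is not reported here.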

Additional observations from a re-analysis of the deposited data

How the results depend on the processing

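Of 30 alternatives for 6 results, 26 kept the result within 1.5 times the count or within 1 SD between libraries. Some of them could not have moved a result, so the 26 do not measure how firm the results are. With 1 of 2 libraries left out, a mean of the 2 always stays within their SD. A count of 56 of 67 genes cannot rise 1.5 times. The number of histone genes whose promoter was open in both libraries ranged from 49 (stricter list) to 64 (2500 bp on each side) of 67, and was 57 around the start codon, an anchor added after seeing the data. Among the 11 genes with under 10% repeated words it was 9, since fewer genes were counted, and their median value was 2.51 in place of 1.79, also added after seeing the data. The cause of that higher value was not tested. With one replicate left out, the count was 56 to 58, the median value 1.57 to 2.00, genes with a promoter footprint 55 to 56, genes with a body peak 53 to 55, and octamers in footprints 0. The mean share of histone peaks that recurred was 88.3%, 73.2% with a reciprocal overlap of at least 50%, and 83.1% in the stricter list. No paired analysis was possible because there was 1 group. Depth is unknown, so a missing peak is not shown to be closed chromatin, least of all in repeated sequence.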
